A study of Mus musculus with 25 samples.

Results

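The cytosolic ribosomal protein genes, which encode the proteins of the ribosome that works in the cytoplasm, were followed through mouse oocytes and early embryos with and without Smarca4. Members were taken by name: symbols that begin with Rpl or Rps followed by a number, with a suffix such as a, a1, x, l, al or l1, together with Rplp0 to Rplp2 and Rpsa. This rule found 85 of the 24412 gene symbols in the deposited files. They fall into 46 core genes of the large subunit, 31 core genes of the small subunit and 8 paralogs, extra copies with a name of their own (Rpl3l, Rpl7l1, Rpl10l, Rpl22l1, Rpl36al, Rpl39l, Rps4l and Rps27l). Genes were tested where 3 or more of the 25 libraries had an FPKM of 1 or above, which left 12079 genes. All 85 members passed, but Rpl3l did so only through late 2-cell libraries and was tested only because it is high there. Fau, which encodes a ribosomal protein fused to a ubiquitin-like one, does not match the rule and is given with the related genes near the end.

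The series holds wild-type (WT) and Smarca4 knockout (KO) RNA libraries of 4 stages. There are 3 WT and 2 KO libraries of MII oocytes, 4 of each genotype of zygotes at pronuclear stage PN3, and 3 of each genotype both of the early 2-cell embryo (E2C) and of the late 2-cell embryo (L2C). Per the labels' protocols, oocytes for sperm injection came from superovulated females aged 8 to 12 weeks. These were B6D2F1 hybrids, or C57BL/6 females that carry floxed Smarca4 alleles (Smarca4flox/flox) and Gdf9 Cre, a recombinase driven by an oocyte promoter. No label ties a library to its strain, so strain and genotype cannot be told apart. The number of cells in a library and whether replicates came from separate females are not given either, so a p-value here reflects the spread of these libraries alone, and that spread may be technical. Smarca4, the motor subunit (an ATPase) of BAF, a chromatin remodeller, was lower in every KO library than in every WT library of its stage. Its mean level was 28.2 in WT and 0.221 in KO oocytes, while in late 2-cell embryos it was 71.4 in WT and still 22.1 in KO, so that the KO embryos are not without Smarca4 mRNA at that stage. The zygotes had 31.2 and 0.316 and the early 2-cell embryos 28.6 and 2.58.

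Levels are FPKM (fragments per transcript length and sequencing depth) as deposited, rescaled so that the typical gene is level between libraries. They are per length, but comparing genes is uncertain where sequences are shared, since the counting of reads that fit several places is unknown. The levels carry no read counts, so the depth of each library is unknown and no counting error can be given. They are also relative to the rest of the library: less mRNA of a gene cannot be told apart from more of the rest. The number of cells and the amount of RNA per cell cannot be read from them. Differences are on the scale log2(scaled FPKM + 1), which understates the change of low genes, with the standard error (SE) and adjusted p of a limma fit over all 12079 genes, and a gene is called changed at an adjusted p under 0.05. The median SD of a core member within a group was 0.07 (log2) in WT MII, 0.23 in WT PN3, 0.56 in WT E2C and 0.47 in WT L2C, and 0.14, 0.21, 0.43 and 0.20 in KO in the same order, so that of the 2-cell groups the KO late one was no noisier than the zygotes. WT E2C replicate 2 stands apart, with 9345 genes above 0 against 13585 to 16698 in the other libraries and 18 of 77 core members listed at 0. The libraries hold the 9 oocyte markers fixed for this check, all at 1 or more in every library, while the summed cumulus and granulosa markers ran from 0.539 to 6.94 and the summed blood markers from 0 to 2.11. The summed sperm and testis markers were 24.8 in KO E2C replicate 2, 8.05 and 6.87 in the other KO E2C libraries and 3.37 to 14.6 elsewhere.

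Ribosomal proteins are made in step, since each ribosome needs a single copy of nearly every one, and free copies are degraded. Their mRNAs start with a 5′ terminal oligopyrimidine (TOP) tract, a C followed by a run of C and T, through which mTORC1 and the RNA-binding protein LARP1 switch their translation on or off. A growing oocyte stores ribosomes and their mRNAs. After fertilisation the maternal mRNA stock is degraded, and the mouse embryo begins its own major wave of transcription in the late 2-cell embryo, so a transcript can be carried over, cleared and made again within these stages.

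Start sites of 64 of the 85 members, 57 of them core, were found in RefSeq (GRCm38.p6). The members shown here are those the results turn on, from 10 bases before the annotated start to 20 bases from it, and capitals mark a C followed by at least 4 more C or T that begins within 5 bases of that start. The first group has such a tract:
Rps6 (chr4:86857348-86857377, minus strand): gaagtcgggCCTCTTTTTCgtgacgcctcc
Rpl18 (chr7:45718061-45718090, plus strand): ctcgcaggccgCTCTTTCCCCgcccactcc
Rps23 (chr13:90923112-90923141, plus strand): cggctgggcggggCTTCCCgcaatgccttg
Rps26 (chr10:128626487-128626516, minus strand): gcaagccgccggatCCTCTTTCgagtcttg
Rps2 (chr17:24720053-24720082, plus strand): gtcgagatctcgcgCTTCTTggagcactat
Rps15a (chr7:118116128-118116157, minus strand): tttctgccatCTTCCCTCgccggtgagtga
The second group has none at the annotated start, which says only that these letters are not in this window:
Rpl24 (chr16:55966265-55966294, plus strand): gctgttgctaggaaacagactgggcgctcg
Rpl26 (chr11:68901556-68901585, plus strand): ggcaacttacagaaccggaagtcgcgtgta
Rpl9 (chr5:65391412-65391441, minus strand): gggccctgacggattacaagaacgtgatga
Rps13 (chr7:116334171-116334200, minus strand): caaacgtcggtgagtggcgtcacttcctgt
Rpsa (chr9:120127756-120127785, plus strand): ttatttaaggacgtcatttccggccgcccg
The third group sets paralogs beside the core gene each is named after:
Rpl10 (chrX:74270806-74270835, plus strand): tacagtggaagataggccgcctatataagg
Rpl10l (chr12:66284382-66284411, minus strand): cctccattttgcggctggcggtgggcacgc
Rpl39 (chrX:37085203-37085232, minus strand): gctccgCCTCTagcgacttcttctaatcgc
Rpl39l (chr16:10170218-10170247, plus strand): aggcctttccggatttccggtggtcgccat
Rps27 (chr3:90213629-90213658, minus strand): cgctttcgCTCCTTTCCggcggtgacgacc
Rps27l (chr9:66946076-66946105, plus strand): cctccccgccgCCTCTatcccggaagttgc

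By this definition 27 of 57 core genes (47.4%) had a tract, against 21.2% of all 27025 genes in the RefSeq table, and 2 of 7 paralogs (28.6%) had one. In the 300 bases from 250 before to 50 after the start, searched on both strands, the ETS letters CCGGAAG stood in 42.1% of core genes and 9.93% of all genes. The palindrome TCGCGA stood in 24.6% and 2.86%, the SP1 letters GGGCGG in 61.4% and 38.2%, the YY1 letters AAGATGGCG in 5.26% and 1.64%, and the TATA letters TATAAA in 10.5% and 15.7%. The ETS letters end with AAG, with which the YY1 letters begin, so that a run can hold both. In Rpl26 and Rps27l the ETS letters fall inside the bases printed above. Of the 77 mitochondrial ribosomal protein genes listed, nuclear genes for the separate ribosome of mitochondria, 68 were found in RefSeq. Of these 25.0% had the tract, 36.8% the ETS letters, 2.94% TCGCGA, 50% the SP1 letters, 11.8% the YY1 letters and 7.35% the TATA letters. The ETS, SP1 and YY1 letters were thus more frequent in this set, too, than among all genes.

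Ribosomal protein genes have many processed copies in the genome, and no source used here says how reads that fit several places were counted. In GENCODE M21 (GRCm38), 299 genes are named as pseudogenes of 61 members. Of the 77 core genes, 72 had at least a single stretch of 100 bases that is identical in a transcript of another annotated gene, and for the median core gene 41.3% of all such stretches were shared. The share was 98.4% for Rps27, 91.6% for Rpl10, 91.1% for Rpl5 and 87.0% for Rpl9, while members with a share of 0 included Rpl22, Rpl32, Rps3 and Rps21. Across the 77 core genes this share did not follow the level in WT MII oocytes (Pearson's r = -0.0336, Spearman's rho = 0.0132, a description over genes of the same libraries). Single low levels, as of Rps27 and Rpl9, are therefore uncertain. Rps4l is annotated as a transcribed processed pseudogene (chr6:148354656-148355598, plus strand), while the other 84 members are annotated as protein-coding.

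The members took up a falling and then a rising share of the library. They held 1.72% ± 0.0413 (SD, n = 3) of all FPKM in WT MII oocytes, 0.969% ± 0.104 (n = 4) in zygotes, 0.654% ± 0.0829 (n = 3) at E2C and 3.26% ± 0.754 (n = 3) at L2C. In KO the shares were 1.74% ± 0.146 (n = 2), 0.999% ± 0.104 (n = 4), 0.613% ± 0.119 (n = 3) and 2.24% ± 0.244 (n = 3). No library of a stage overlapped a library of the same genotype at another stage. At L2C the 3 WT libraries stood at 3.99%, 3.30% and 2.48% and the 3 KO libraries at 2.51%, 2.03% and 2.19%, so that WT replicate 3 lay below KO replicate 1.

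**Figure D1:**
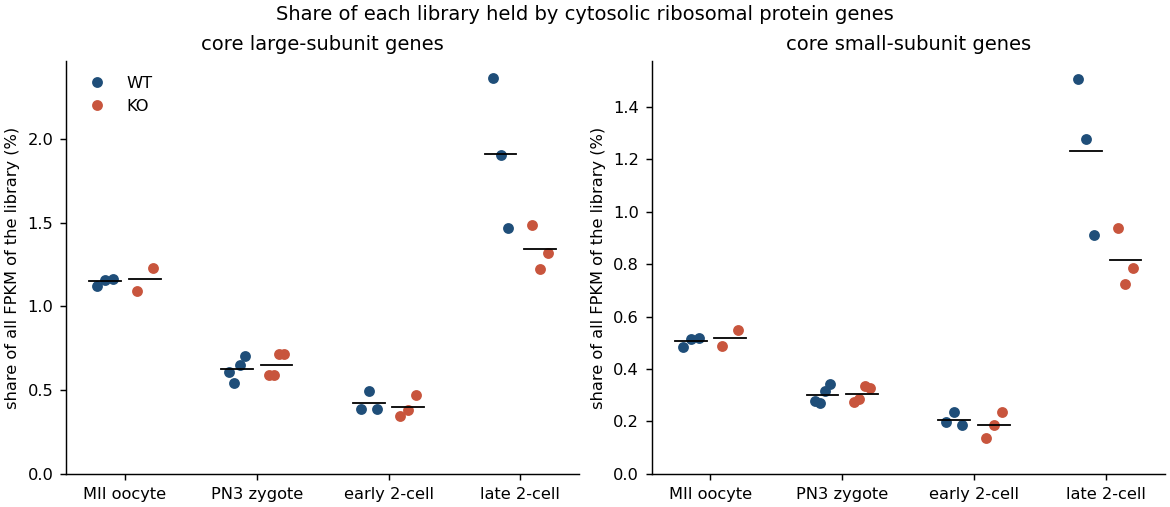
Share of all FPKM of a library (%) held by the 46 core large-subunit genes (left) and the 31 core small-subunit genes (right) at each stage; each point is a library, blue WT and red KO, and the bar is the group mean. Both subunits are lowest in early 2-cell embryos and highest in late 2-cell embryos, where the lowest WT library is level with the KO libraries.

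The balance between the subunits changed with the stage. The summed FPKM of the large-subunit genes was 2.27 ± 0.0421 (SD, n = 3) times that of the small-subunit genes in WT MII oocytes, 2.08 ± 0.0671 (n = 4) in zygotes, 2.03 ± 0.0929 (n = 3) at E2C and 1.56 ± 0.0596 (n = 3) at L2C. In KO it was 2.24, 2.13, 2.18 and 1.65. All 6 L2C libraries, at 1.49 to 1.69, lay below all other libraries, at 1.93 to 2.51. The core genes were also more even at L2C: the SD of their log2 levels within a library was 0.970 to 1.11 there, against 1.37 to 1.42 at MII and 1.57 to 1.68 at PN3. At E2C it was already below the PN3 values in all but WT replicate 2, at 1.28, 2.24 and 1.25 in WT and 1.33, 1.46 and 1.36 in KO.

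In MII oocytes the core members spanned a wide range of levels. The 3 highest of the large subunit in WT were Rpl35 (183, 190 and 189 in the 3 libraries), Rpl17 (154, 149 and 138) and Rpl4 (129, 138 and 132), whose proteins all line or surround the tunnel through which the new chain leaves. Rps24 (114, 113 and 115) and Rps7 were among the highest of the small subunit. At the low end, Rpl9 was 0.216, 0.0600 and 0.193, Rps27 was 1.72, 0.472 and 0.749, Rps19, which is needed to mature the small subunit, was 2.92, 2.66 and 3.08, and Rps3, at the mRNA entry site, was 3.94, 3.30 and 3.91. Apart from Rpl9 and Rps27, the replicates of these genes lay close together. The order of the core genes in WT and KO oocytes was close (Pearson's r = 0.984 over 77 genes of log2 group means, a description), and it was looser between WT oocytes and WT L2C embryos (r = 0.600).

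From MII oocytes to PN3 zygotes the ribosomal protein mRNAs fell together in WT. Of the 85 members 74 were called lower and 2 higher, against 26.1% and 19.2% of all genes tested, and the median member fell by 0.99 on the log2 scale while the median of all genes was 0. Among large-subunit genes 43 of 46 were lower (median -1.05), among small-subunit genes 27 of 31 (median -1.18) and among paralogs 4 of 8 (median -0.48). With equal weight for all libraries the count of called members was 45 in place of 76, in a fit whose share of all genes is not given here.

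Rpl26, whose protein sits at the exit of the peptide tunnel, had the largest fall in WT. It was 50.3, 50.1 and 37.1 in WT MII oocytes and 2.52, 2.60, 13.7 and 2.82 in WT PN3 zygotes, a log2 difference of -3.17 ± 0.35 (SE, adjusted p = 2e-07). No library of the groups overlapped, and PN3 replicate 3 was well above the other 3. In KO Rpl26 went from 51.9 and 70.6 to 3.13, 2.51, 0.793 and 0.327, a difference of -4.67 ± 0.38. Whether the fall differs between the genotypes was not tested.
Rpl18 was next. It fell from 17.7, 19.6 and 18.9 to 0.537, 2.77, 1.81 and 2.98 in WT, a difference of -2.80 ± 0.24 (adjusted p = 3.2e-09). Rps29 (-2.48 ± 0.16), Rpl39 (-2.43 ± 0.15) and Rps13 (-2.35 ± 0.22) completed the 5 largest falls. Among members with a role outside the ribosome, Rpl5 and Rpl11, which with 5S rRNA hold back the p53 ligase Mdm2, fell by 1.63 and 0.55. Rps27a, made as a fusion with ubiquitin, fell by 1.83, and Rpl38, known for its part in the translation of Hox mRNAs, fell by 1.97.

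The members that did not fall were of both subunits. The largest rise called in WT was that of Rpl7l1, from 3.46, 3.67 and 3.70 to 4.70, 4.95, 5.06 and 4.93 (0.36 ± 0.06, adjusted p = 7.7e-05), while its namesake Rpl7 fell by 0.96. The other, Rpl9, rose by 0.30 ± 0.10 between levels that were all under 1, and this call was lost without WT MII replicate 2, WT PN3 replicate 2 or WT PN3 replicate 3. Core genes with no call in WT were Rps24 (114, 113 and 115 against 113, 116, 112 and 106), Rps6, the protein phosphorylated by S6 kinase (31.8, 31.1 and 32.4 against 31.4, 33.2, 33.7 and 39.4), Rpl24, Rpl17, Rps15a and Rps25. Their standard errors were 0.08 to 0.17, so that a fall as large as the median member's would have been well outside the error.

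The same step in KO gave 67 members lower, against 23.2% of all genes, and 0 higher, against 17.6%, with a median of -0.95. Across the 77 core genes the change in KO followed that in WT (Pearson's r = 0.948, Spearman's rho = 0.960). These comparisons share no library. Rpl26, Rpl18, Rps13 and Rps29 were among the 5 largest falls in KO as they were in WT. With equal weights the KO count was 39 in place of 67, again without the share of all genes in that fit.

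**Figure D2:**
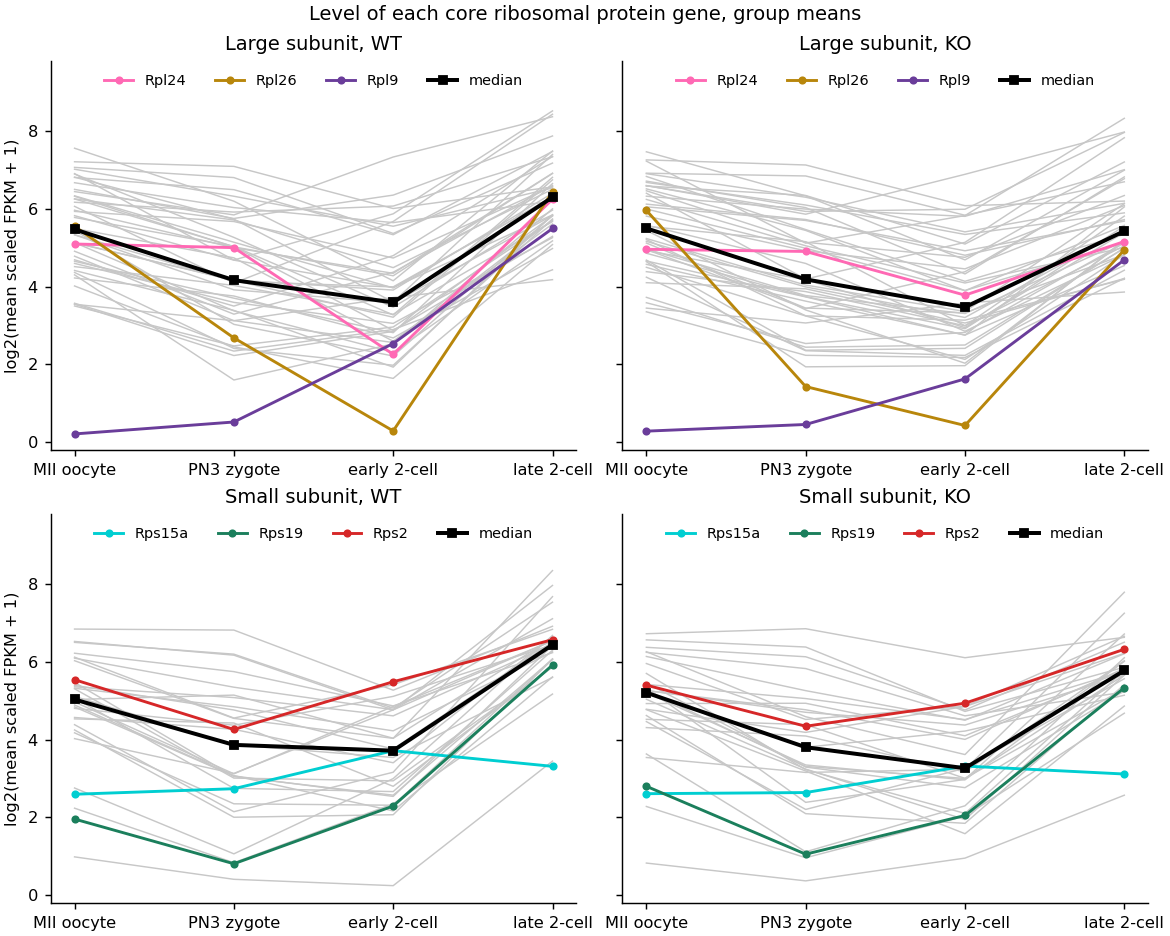
Mean level of each core gene, log2(mean scaled FPKM + 1), at the 4 stages, for the large (top) and small (bottom) subunit in WT (left) and KO (right); grey lines are genes, the black line is the median gene and coloured lines are named genes. Most lines dip to PN3 and E2C and end highest at L2C, while Rpl9 rises from near 0 and Rps15a stays within a narrow band.

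Between PN3 and early 2-cell embryos the members went apart. In WT 33 were called lower and 12 higher, against 18.1% and 12.9% of all genes, with a median of -0.66 (all genes: -0.05). The split was 22 lower and 5 higher of 46 large-subunit genes and 9 lower and 5 higher of 31 small-subunit genes. Where libraries were scaled to a fixed total (TPM) or left as deposited, the median of all genes was -0.20 at this step, a shift of more than 0.1, and members are read against it.

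Rpl24, which forms a bridge between the subunits, kept its level into PN3 and then fell the most. It was 30.6, 31.3, 30.8 and 31.5 in WT PN3 and 3.79, 0 and 7.54 in WT E2C (-3.22 ± 0.38, adjusted p = 1.1e-06), with the 0 in the replicate 2 that stands apart. In KO the E2C libraries were 7.45, 6.27 and 24.5 (-1.36 ± 0.38, adjusted p = 0.014), a call that was lost without KO replicate 1 or replicate 2. The difference between the genotypes in this step was not called (adjusted p = 0.74). Rpl36 (-2.75 ± 0.50), Rpl36al, Rpl35 and Rps25, a protein used by some viral mRNAs to start translation, made up the other large falls in WT. Rpl36 and Rps25 were also listed at 0 in WT E2C replicate 2, which enlarges their falls. Rps24, flat up to PN3, and Rpl4, already called lower at PN3, fell by 1.67 and 1.50.

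The rises at E2C in WT were led by Rpl9 and by the stalk proteins. Rpl9 went from 0.361, 0.516, 0.671 and 0.174 to 3.64, 6.73 and 4.01 (1.99 ± 0.28, adjusted p = 1.3e-05). Rplp1 and Rplp2, acidic proteins that form the stalk to which elongation factors bind, rose by 1.53 ± 0.41 and 1.47 ± 0.31, and Rplp0, the base of the stalk, differed by 0.59 ± 0.28 (adjusted p = 0.11). Rplp2 was 60.7, 54.5, 50.4 and 60.0 at PN3 and 146, 203 and 131 at E2C, so that it was then above its oocyte level of 84.8 to 87.1. Rps3 rose by 1.51 ± 0.33 and Rps23, a protein of the decoding centre, by 1.39 ± 0.41, but the call of Rps23 was lost without WT E2C replicate 2, where it was 49.6 against 18.3 and 10.8 in the others.

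In KO 33 members were lower and 7 higher at this step, against 12.2% and 8.87% of all genes. The count of 40 rests on the KO E2C libraries: it was 11 without replicate 1, 13 without replicate 2 and 27 without replicate 3. The shares of all genes called in those fits are not given here. The largest falls were those of Rpl13 (-2.21 ± 0.37), Rpl36al (-1.99 ± 0.29), Rpl21, Rps7 and Rpl19, and the rises were led by Rpl10l, Rpl9, Rplp2, Rps3 and Rpl8, each of which lost its call without KO E2C replicate 3. Across core genes the change in KO and in WT had r = 0.826 and rho = 0.824 (77 genes, no library shared).

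Between early and late 2-cell embryos nearly all members rose. In WT 78 of 85 were called higher, against 34.1% of all genes, and 0 lower, against 18.3%, with 78 at an unadjusted p under 0.05. The median member rose by 2.69 on the log2 scale, where the median of all genes rose by 0.25 (0.33 in TPM). The rise was shared by 43 of 46 large-subunit genes (median 2.59), 29 of 31 small-subunit genes (median 2.82) and 6 of 8 paralogs (median 2.28). Without WT E2C replicate 2 the count was 80, in a fit whose share of all genes is not given here.

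Rpl26 had the largest rise of any member. It was 0.660, 0 and 0 in WT E2C and 127, 92.8 and 37.1 in WT L2C (6.03 ± 1.27, adjusted p = 0.00046). The groups did not overlap, and the L2C mean of 85.8 was above the oocyte mean of 45.9. In KO it went from 0.0697, 0.0862 and 0.876 to 41.2, 7.52 and 40.7 (4.25 ± 1.27), a call that was lost without KO E2C replicate 1 or 2 or without KO L2C replicate 3.
Rps13 and Rps26, both of the small subunit, were also among the largest rises. Rps13 rose by 4.37 ± 0.78 and Rps26 from 9.18, 16.8 and 20.2 to 377, 333 and 265 (4.37 ± 0.34). Rpl24 rose by 4.40 ± 0.50, back to 99.5, 78.7 and 46.9. Both Rps13 and Rpl24 were listed at 0 in WT E2C replicate 2, which enlarges their rises. Of these genes Rps26 and Rpl26 are known as genes in which human mutations cause Diamond-Blackfan anaemia.

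The 5 core genes that were not called higher were Rps2, Rpl17, Rpl32, Rpl15 and Rps15a. Rps15a was 8.43, 16.4 and 11.6 at E2C and 9.01, 9.05 and 8.77 at L2C, and it was the 1 core member with a negative difference (-0.36 ± 0.28, adjusted p = 0.30). Rpl17 stood at 49.0, 87.1 and 54.0 at E2C and 112, 83.2 and 85.1 at L2C (0.59 ± 0.31, adjusted p = 0.12). Rps2, at 41.3, 63.3 and 27.1 against 97.5, 95.2 and 89.6, differed by 1.16 ± 0.61 with no overlap between the groups. These genes missed the threshold, which does not show that they did not rise.

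The KO embryos made the same step with 69 of 85 members higher, against 26.8% of all genes, and 0 lower, against 14.0%, with 72 at an unadjusted p under 0.05. The median was 2.01 (all genes: 0.15). Rpl26, Rps26 (4.19 ± 0.34), Rps23 (4.00 ± 0.53) and Rpsa (3.83) were among the 5 largest rises. The change across core genes had r = 0.808 and rho = 0.783 between the genotypes.

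**Figure D3:**
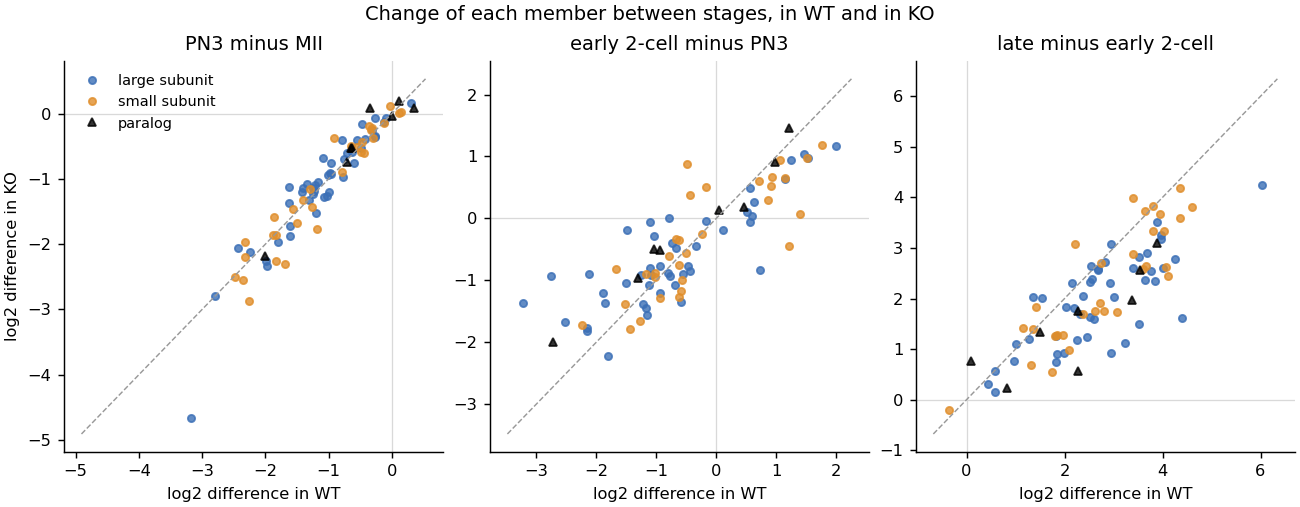
Log2 difference of each of the 85 members between successive stages in WT (horizontal) and in KO (vertical); blue circles are large-subunit genes, orange circles small-subunit genes and black triangles paralogs, and the dashed line marks equal change. Points lie near the line from MII to PN3 and, at the last step, mostly below it.

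Measured from the oocyte to the late 2-cell embryo in WT, 56 members were higher and 6 lower, against 40.4% and 33.3% of all genes, with a median of 0.97. The median of all genes was 0.13 here, 0.06 in TPM and -0.05 as deposited. Without WT L2C replicate 1, 37 members were higher and 6 lower, and without WT L2C replicate 2, 46 were higher and 1 lower. The 40.4% and 33.3% belong to the fit with all libraries, and the shares of all genes without these libraries are not given here. The small subunit had 24 of 31 higher and 0 lower (24 at an unadjusted p under 0.05), and the large subunit 28 of 46 higher and 5 lower. The difference between the subunits was not tested. Members low in the oocyte tended to rise most: across 77 core genes the level in KO oocytes had rho = -0.567 with the change in WT (a description). The KO oocyte levels were close to the WT oocyte levels that this change subtracts (Pearson's r = 0.984). A negative value was therefore likely in advance and is not separate evidence.

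Rpl9 (chr5:65388364-65391444, minus strand) had the largest rise from oocyte to L2C. It reached 55.8, 46.0 and 30.4 from levels of 0.0600 to 0.216, a difference of 5.24 ± 0.25 (adjusted p = 2e-14). Rps19, from 2.92, 2.66 and 3.08 to 78.3, 57.5 and 42.8 (3.92 ± 0.41), Rps23, from 12.3, 17.6 and 15.9 to 331, 258 and 159 (3.89 ± 0.37), and Rpsa, from 5.81, 5.20 and 6.26 to 132, 105 and 67.4 (3.87 ± 0.69), followed among core genes. Rpsa is also known as the laminin receptor. For all 4 genes every L2C library was above every oocyte library, as in 68.8% of core genes and 42.0% of all genes tested. Since the 4 were picked for their large rises, this is not separate evidence.
The falls were smaller. Rpl5 went from 123, 114 and 117 to 79.9, 70.1 and 34.7 (-1.01 ± 0.22, adjusted p = 0.00033), and its partner Rpl11 stood at 70.2, 77.6 and 78.4 against 114, 98.9 and 56.6 (0.19 ± 0.24, adjusted p = 0.48). Rpl36 (-1.05 ± 0.45), Rpl17 (-0.66 ± 0.22), Rpl32 (-0.53 ± 0.22) and Rpl22l1 were also called lower, but each of these calls was lost when WT L2C replicate 2 was left out.

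Core genes with and without a start-site tract changed by similar amounts. From MII to PN3 in WT the median change was -1.09 for the 27 core genes with a tract and -0.98 for the 30 without. From E2C to L2C it was 2.38 and 2.83, and from MII to L2C 0.99 and 1.19. The ranges overlapped widely at every step.

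The paralogs did not share a course. Rpl10l (chr12:66283379-66284401, minus strand), an autosomal gene with 1 exon known from the testis, where it stands in for the X-linked Rpl10, rose the most. It was 0.681, 1.06 and 1.93 in WT oocytes and 0.366 to 0.873 in zygotes, then 4.90, 1.37 and 3.41 at E2C, and reached 54.5, 63.7 and 55.0 at L2C (L2C minus MII 4.76 ± 0.38, adjusted p = 1.1e-10). None of its 100-base stretches is shared with another gene. Its share of the summed FPKM of the pair with Rpl10 went from 1.97% ± 1.09 (SD, n = 3) in WT oocytes to 34.0% ± 8.97 (n = 3) at L2C, and from 0.894% to 35.3% in KO. The testis markers fixed for this check summed to 3.37 to 7.81 in the 6 L2C libraries, below the oocyte libraries at 12.3 to 14.6, and Tnp1, Odf1, Spem1, Smcp and Gapdhs were listed at 0 in all of them.

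Rpl7l1 and Rps4l also took more of their pair at L2C. Rpl7l1 held 9.66% ± 0.449 (SD, n = 3) of the pair with Rpl7 in WT oocytes and 30.3% ± 5.86 (n = 3) at L2C, and was 40.8, 37.0 and 22.7 there (L2C minus MII 2.86 ± 0.16). In KO its share was 11.3% at MII and 33.2% ± 3.38 (n = 3) at L2C. The KO E2C libraries were already at 31.2% ± 14.2 (n = 3), from 22.4% to 47.6%. Rps4l held 21.6% ± 1.70 (n = 3) of the pair with Rps4x in oocytes, 7.60% ± 1.89 (n = 4) at PN3 and 33.4% ± 3.54 (n = 3) at L2C, so that it lost and regained ground against its namesake in WT, as it did in KO at 25.4%, 8.09% and 37.4%.

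Rps27l, known as a p53 target, is the main form listed of its pair, at 94.5% ± 3.72 (SD, n = 3) in WT oocytes and 77.5% ± 14.4 (n = 3) at L2C. It was flat from MII (16.1, 19.4 and 15.8) to PN3 (15.3 to 18.2) and then 36.8, 25.8 and 43.5 at E2C and 34.4, 24.8 and 57.8 at L2C. Its rise at E2C was called in WT (0.97 ± 0.29) and in KO (0.91 ± 0.29), though not without WT E2C replicate 1 or replicate 3, nor without any single KO E2C library. Rps27 itself was under 2 in all libraries before L2C, and 98.4% of its 100-base stretches are shared with other genes, so that its part of the pair is uncertain.

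Rpl36al, an autosomal copy of the X-linked Rpl36a, was the more abundant of its pair at MII, with 69.1% ± 1.11 (SD, n = 3), and at PN3, with 77.4% ± 4.33 (n = 4), and fell to 55.5% ± 8.55 (n = 3) at L2C. It dropped from 47.1 to 68.0 at PN3 to 8.95, 4.28 and 11.4 at E2C (-2.71 ± 0.29, adjusted p = 2.4e-07) while Rpl36a stood at 10.9 to 20.5 and then at 6.17, 30.7 and 7.90. Rpl39l, known from testis, was 13.7% ± 1.55 (n = 3) of its pair at MII, 34.5% ± 7.63 (n = 4) at PN3 and 17.0% ± 1.57 (n = 3) at L2C. Its own level moved from 5.85 to 7.68 in WT oocytes to 2.46 to 4.29 at PN3, a smaller fall (-0.71 ± 0.16) than that of Rpl39 (-2.43 ± 0.15). Rpl22l1, which the Rpl22 protein is known to hold down, was low throughout, from 3.36, 4.50 and 3.82 at MII to 1.87, 1.34 and 0.763 at L2C. Rpl3l, known from muscle, was listed at 0 in all 5 oocyte libraries and was 2.14, 2.04 and 2.26 in WT L2C.

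**Figure D4:**
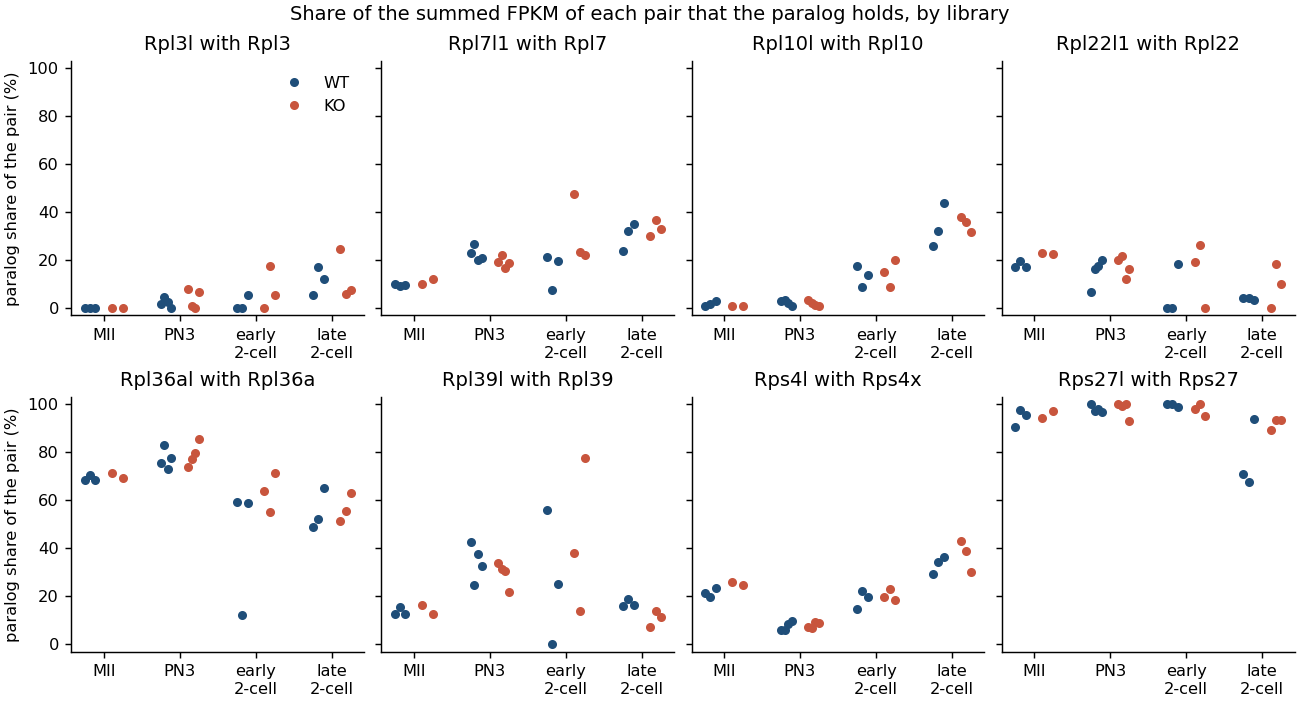
Share (%) of the summed FPKM of each pair that the paralog holds, by stage; each point is a library, blue WT and red KO. Rpl10l, Rpl7l1 and Rps4l are at their highest share at L2C in WT, and Rps27l is above 60% of its pair in every library.

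Between KO and WT oocytes the members differed little. At MII 6 of 85 were called, 3 higher and 3 lower, where 13.0% of all genes were called, and the median difference was 0.04. Rps19 was 5.91 and 6.03 in KO and 2.92, 2.66 and 3.08 in WT (0.84 ± 0.16, adjusted p = 0.00077), with no overlap. Rpl41, the smallest protein of the ribosome, was also higher, at 142 and 156 against 113, 121 and 123 (0.32 ± 0.09, adjusted p = 0.020). Rps23 (-0.48 ± 0.14), Rpl14 (-0.39 ± 0.13) and Rpl10l (-0.53 ± 0.14, at levels of 0.436 to 1.93) were lower. Of these 6 calls, that of Rps19 alone held whichever single library was left out: Rpl41 was lost without WT replicate 1 or 2 or KO replicate 2, Rps23 without WT replicate 2 or 3 or KO replicate 2, Rpl10l without WT replicate 3 or KO replicate 1, and Rpl14 without any WT library or KO replicate 1. No member was called with equal weights for all libraries, and 2 were with the MII libraries fitted alone. The 13.0% belongs to the main fit, and the shares of all genes in these other fits are not given here.

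At PN3 2 of 85 were called, where 3.05% of all genes were, and the median was 0.03. Rpl41 was higher again in KO, at 31.4, 29.0, 39.8 and 34.6 against 24.9, 19.4, 25.6 and 28.7 (0.44 ± 0.11, adjusted p = 0.023), and every KO library was above every WT library. Rpl12, at the base of the stalk, was 10.6, 12.4, 13.5 and 13.1 against 8.43, 7.14, 8.90 and 10.7 (0.46 ± 0.13, adjusted p = 0.050). Neither was called with equal weights or with the PN3 libraries alone, and both calls were lost without WT replicate 2, KO replicate 3 or KO replicate 4. Rpl12 was lost as well without WT replicate 1, WT replicate 3 or KO replicate 2. Rpl26 was lower in KO by 1.09 ± 0.39 (adjusted p = 0.14), with WT replicate 3 at 13.7.

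In early 2-cell embryos 0 of 85 members were called by limma, where 0.00828% of all genes were, and 8.24% of members (7) and 5.98% of all genes had an unadjusted p under 0.05. The differences ran from -1.40 to 1.82, the widest range of the 4 stages, with a median of -0.06 that was 0.09 in TPM and ran from -0.19 to 0.11 when single libraries were left out, so no direction is given. The lowest p-values belonged to Rpl24 (7.45, 6.27 and 24.5 in KO against 3.79, 0 and 7.54 in WT, 1.75 ± 0.52, adjusted p = 0.65), Rps24 (0.89 ± 0.33) and Rpl36 (1.82 ± 0.68). For Rpl24 and Rpl36 the lowest WT value is the 0 of the replicate that stands apart.

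In late 2-cell embryos the members were lower in KO almost throughout, without passing the test. Of 77 core genes 76 had a negative difference, 45 of 46 in the large and 31 of 31 in the small subunit, with a median of -0.59, and the median of the 8 paralogs was -0.65. Among all genes tested 6520 of 12079 differences were negative, with a median of -0.05. By limma 0 of 85 members were called, where 0.770% of all genes were. At an unadjusted p under 0.05 there were 17 members (20.0%), near the 17.7% of all genes. In 28 of 77 core genes (36.4%) all KO libraries lay below all WT libraries, where 11.4% of all genes did so. In 0 core genes all KO libraries lay above all WT libraries, where 8.76% of all genes did so.

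The lowest p-values were those of Rpl7l1, Rpl22 and Rps6. Rpl7l1 was 21.2, 19.9 and 19.3 in KO against 40.8, 37.0 and 22.7 in WT (-0.67 ± 0.22, adjusted p = 0.13). Rpl22 was 17.5, 16.6 and 18.3 against 41.1, 29.7 and 20.8 (-0.72 ± 0.26, adjusted p = 0.15). Rps6 was 58.5, 50.2 and 53.4 against 119, 95.3 and 75.5 (-0.80 ± 0.29, adjusted p = 0.15). In all 3 the groups did not overlap, and WT replicate 3 was the WT library nearest to KO.

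The count of calls depended on 1 library and on the weights. WT L2C replicate 3 had the lowest WT level in 72 of 77 core genes, lay within the KO range in 44 and above it in 28. Without it 19 members were called, 18 lower and 1 higher, with a median of -0.85, and so were 2583 of all 12079 genes, a share near that of the members. The lower ones included Rps4x (-1.30 ± 0.29, adjusted p = 0.0031), Rpl7l1 (-0.92 ± 0.19, adjusted p = 0.0022), Rpl22 (-0.96 ± 0.23) and Rpl10 (-1.10 ± 0.29), the last large-subunit protein to join, and the 1 higher was Rps27l (0.96 ± 0.33, adjusted p = 0.041). With all libraries kept and equal weights 16 members were called, all lower, of which 11 were among the 19, and 1872 of all 12079 genes were called. Markers of stage moved with this library. The 9 oocyte markers summed to 355 and 432 in WT replicates 1 and 2, 837 in WT replicate 3 and 708 to 956 in KO, and the 7 markers of the 2-cell embryo to 57.2 and 72.1, 248, and 199 to 231 in the same order. Their part in the difference was not tested.

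Rplp0 was the only core gene with a positive difference at L2C, at 272, 231 and 243 in KO against 219, 220 and 261 in WT (0.09 ± 0.34, adjusted p = 0.92), while its stalk partners Rplp1 and Rplp2 differed by -0.60 ± 0.51 and -0.34 ± 0.38. Rpl41 was 349, 301 and 311 against 414, 381 and 302, a difference of -0.18 ± 0.33. Rpl26 had the most negative value, -1.64 ± 1.20, through the single KO library at 7.52.

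The change of the KO difference from stage to stage was tested as an interaction. From PN3 to E2C 0 members were called, where 0% of all genes were, with 7 at an unadjusted p under 0.05 (8.24%, all genes 5.32%) and Rpl12 (-1.56 ± 0.45, adjusted p = 0.74) and Rpl24 first in order of p. From E2C to L2C 0 members were called, where 0.00828% of all genes were, with 15 at an unadjusted p under 0.05 (17.6%, all genes 11.4%). The median was -0.62, and Rpl24 came first (-2.79 ± 0.70, adjusted p = 0.26). The count of members called, 0 with all libraries, was 5 without WT L2C replicate 3, all of them negative, and 1 without WT E2C replicate 3. The shares of all genes called in these 2 fits are not given here, so these counts are not read as results about the members.

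**Figure D5:**
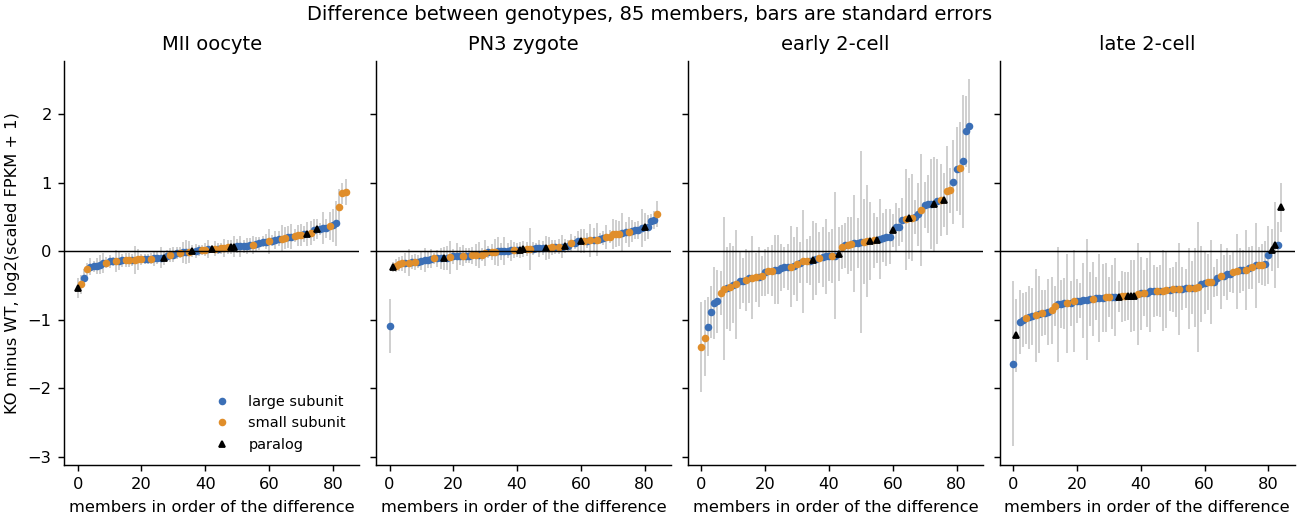
KO minus WT difference of each of the 85 members on the log2(scaled FPKM + 1) scale at the 4 stages, members in order of the difference; bars are standard errors of the limma fit, blue and orange circles are large- and small-subunit genes and triangles paralogs. Differences centre on 0 at MII, PN3 and early 2-cell, and 81 of 85 are below 0 at late 2-cell.

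Related genes did not all follow the members. Fau fell with them from MII to PN3 in WT (-0.80) and rose with them from E2C to L2C (1.83). Among the 19 other genes with TOP mRNAs, Fau included, 6 were called lower (31.6%, all genes 26.1%) and 6 higher (31.6%, all genes 19.2%) from MII to PN3. From E2C to L2C 10 were higher (52.6%, all genes 34.1%) and 3 lower (15.8%, all genes 18.3%). The falls at the last step were those of Eef1a1 (-0.72), Eef1b2 (-0.92) and Btf3 (-1.47), the first pair translation elongation factors. Pabpc1, the poly(A)-binding protein, rose from 7.01, 3.42 and 5.95 to 228, 202 and 154.

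Of the 16 genes that control TOP translation, 6 rose (37.5%, near the 34.1% of all genes) and 1 fell (6.25%, all genes 18.3%) from E2C to L2C in WT. Larp1 rose from 2.77, 1.74 and 2.16 to 74.9, 53.8 and 24.2 (3.88) and Larp1b by 4.58, and the fall was that of Pdcd4, an inhibitor of initiation. Of the 13 chaperones and importers of ribosomal proteins, 9 rose (69.2%) and 2 fell (15.4%) at that step, among the risen Grwd1 (3.91), the chaperone of Rpl3, and Ipo7 (3.88), an importer. The 76 mitochondrial ribosomal protein genes tested had 47 lower (61.8%) and 3 higher (3.95%) from MII to PN3, with a median of -0.35. From E2C to L2C 36 were higher (47.4%) and 11 lower (14.5%), with a median of 0.95, and by L2C their median stood at -0.49 relative to MII where that of the cytosolic members stood at 0.97. None of these lists had a member called between KO and WT at L2C, where their medians were -0.48, -0.27, -0.55 and -0.33. Of their genes 8 (42.1%), 4 (25.0%), 6 (46.2%) and 10 (13.2%) had an unadjusted p under 0.05, against 17.7% of all genes. Of the 7 rows named as ribosomal protein pseudogenes, 2 passed the filter on low values, and Rpl34-ps1, the more abundant, was 27.2, 2.02 and 11.4 in the WT oocyte libraries.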

How the data were processed

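Expression was measured by RNA sequencing (paired reads of 150 bases, from libraries depleted of ribosomal RNA, per the labels' protocols). The authors deposited 1 FPKM value per gene symbol and library, and HISAT2, HTSeq, StringTie and Trim Galore 0.4.5 are named, with no role, in the submitters' processing notes, as are mm10 and GRCm38. The sources used here do not say which tool made the FPKM values, whether strand was used or how reads that fit several places were handled. The values show no steps of whole reads, so counts could not be recovered.

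Each library was scaled by its median ratio to a geometric-mean reference of the 6492 genes that reach 1 in every library. A model with 8 group means was fitted to log2(scaled FPKM + 1) of 12079 genes with limma 3.58.1 (R 4.3.3), with a trended, robust prior and weights estimated per stage (MII 5.25, PN3 2.26, E2C 0.265, L2C 0.320), because the stages differ in spread. Adjusted p-values follow Benjamini and Hochberg over the 12079 genes, and the fit was tested on simulated data. KO MII has 2 libraries, and where 1 was left out the other was taken to vary like the other groups. Alternatives were equal weights, the libraries of the stages compared with equal weights, TPM, FPKM as deposited, a pseudocount of 0.1, no filter, a replicate block and leaving out each library.

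The text names each paralog with its core gene, the 3 highest and lowest core genes per subunit in WT oocytes, the 5 largest called rises and falls per comparison (the 3 lowest p where none was called), core genes not called higher from E2C to L2C, 12 genes with known further roles, and Smarca4. Some genes that this rule names are not reported here, though the counts include them. Rpl8, Rpl11, Rps4x and others given in passing fall under these or were chosen after their values were seen. The members, lists and tests were chosen with earlier results of these data known. The rows of other genes come from lists fixed with the same knowledge. Gene positions and transcripts are from GENCODE M21 (GRCm38) and start sites from RefSeq (GRCm38.p6). No protein sequences were used. Figures were drawn with matplotlib.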

Additional observations from a re-analysis of the deposited data

Results flagged for a closer look

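In the 2 groups of 4 libraries (WT PN3 and KO PN3), 114 sets of 4 values were examined (56 members named by the rule and the members' share), and 4 had a library far from the other 3. Chance gives about 1 in 20. Rpl26 was 13.7 in WT PN3 replicate 3 and 2.52 to 2.82 in the others. Rpl39l was 2.46 in WT PN3 replicate 2 and 4.12 to 4.29 in the others. Rps27 was 1.01 in KO PN3 replicate 4 and 0 to 0.151 in the others, and Rpl15 was 5.66 there against 7.80 to 8.04. Groups of 3 or fewer libraries were not examined in this way.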

How the results depend on the processing

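The 85 members' share of FPKM is the same in each scaling by construction. With equal weights for all libraries, members called numbered 0 in place of 6 (KO minus WT at MII), 0 in place of 2 (PN3), 1 in place of 0 (E2C), 16 in place of 0 (L2C), 45 in place of 76 (WT PN3 minus MII), 39 in place of 67 (KO PN3 minus MII) and 8 in place of 0 (change of the KO difference from E2C to L2C). For equal weights, and for single libraries left out, the count over all genes is given above only for KO minus WT at L2C. The other counts under alternative fits, here and in the Results, are therefore not read as results about the members. With only the libraries of the stages compared, 2 were called at MII and 0 at PN3. For KO minus WT at PN3 the count was 1 as deposited and 0 with no filter, and for KO E2C minus PN3 it was 26 with a pseudocount of 0.1. Leaving out each library gave 3 to 8 for KO minus WT at MII, 0 to 2 at PN3, 0 to 19 at L2C, 11 to 40 for KO E2C minus PN3 and 0 to 5 for the change of the KO difference from E2C to L2C. In the other comparisons the count over both directions stayed within 1.5 times the main one, though from MII to L2C in WT the members higher went from 56 to 37 without L2C replicate 1, and those lower from 6 to 1 without L2C replicate 2. A fit with a replicate block called 8 members at PN3, and 4 at MII, in place of 2 and 6. Same-numbered WT and KO libraries had deviations that correlated from -0.18 to 0.43, and no label ties them, so the block was not used further. It could not be fitted to the steps between stages. Of 285 called differences of named members, 92 missed the threshold under at least 1 alternative and 0 changed sign. The 2-cell stages limit these results: the spread is large in WT and in KO at E2C, and the depth is unknown.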
